A study of Rattus norvegicus with 16 samples.

Results

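Rat cortex 48 h after a fluid percussion injury was compared with cortex of the early sham animals, killed 3, 6 or 12 h after the sham procedure. The comparison used the 3 arrays taken 48 h after trauma and the 3 early sham arrays, chosen by their titles. The single 48 h sham array was set beside them. These 7 arrays are part of 16, and 14218 genes were tested on each.

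All animals were male Wistar rats, 8 weeks old, with no genetic change named in the labels. Every animal, sham or injured, had first received a craniectomy over the right parietal cortex with a skull-mounted adapter, and lived with it for 48 h. The injured animals then received a moderate fluid percussion, a brief pressure pulse of saline against the exposed dura that bruises the cortex, and the shams did not. Injured cortex was taken 48 h later, which is 96 h after the craniectomy. The early shams were taken 51, 54 and 60 h after it and the 48 h sham at 96 h. Injury and time since surgery therefore differ together in the comparison with the early shams. The study itself set the 48 h injury against the 48 h sham alone, because that sham array stood apart from the others. Cortex of the contused area was dissected after saline perfusion, and polyadenylated RNA was hybridised to Affymetrix whole-genome rat arrays. The labels do not say whether arrays came from separate animals, so p-values measure the spread between these arrays only.

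After a contusion, microglia, the resident macrophages of the brain, are joined by monocyte-derived macrophages that enter from the blood, and both take up debris into lysosomes. Microglia and other glia divide in the days after the injury. Astrocytes near the lesion raise intermediate filaments and secreted acute phase proteins. Inflammatory cytokines belong to the first hours, and macrophages, proliferation and repair to the following days.

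The deposited values are logarithms, taken here as log2, with each probe set's median over the 16 arrays subtracted. A value of 1 means 2-fold above the median array, and a level or a detection call cannot be read. The labelled tissue could therefore not be checked by the level of neuronal markers, only by how they changed. In bulk tissue, fewer cells of a type and less RNA per cell cannot be told apart. The SD over all genes was 0.31, 0.39 and 0.23 in injured replicates 1, 2 and 3, between 0.22 and 0.23 in the early shams and 0.23 in the 48 h sham. Injured replicate 3 had the narrowest spread of the injured arrays. Among genes that rose it was the least changed of the 3 injured arrays for 749 of 905, and among genes that fell for 276 of 472. Genes named by the rule given with the processing stand without remark where the call held in each of 6 fits that left out 1 injured or early sham array. Where it did not, the arrays or the range of the adjusted p are given beside the gene. Of the genes that held in all 6, Camk2a, Ifitm1, Mfsd2a, Mmp2 and Rbm3 did not pass with all 4 shams as 1 control group, and A2m, C1qc, Ifitm1, Mlc1 and Sdf2l1 did not pass in a model of only the 6 arrays compared.

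At 48 h more genes were called above the early shams than below, although by the mean alone, called or not, 6763 genes were higher and 7455 lower. With limma and a Benjamini-Hochberg adjusted p under 0.05, 1377 genes were called (9.68% of 14218). Of these 905 rose (6.37%) and 472 fell (3.32%), and 233 rises but only 9 falls reached 2-fold. The median difference over all genes was -0.01. The 3 injured arrays lay wholly above the 3 early shams for 2091 genes (14.7%) and wholly below for 2100 (14.8%). Of the genes that rose, 888 were separated in this way, and of those that fell, 462. The count of calls depended on the arrays: it was 725 without injured replicate 1, 482 without replicate 2, 2054 without replicate 3, and 903, 626 and 684 without the 3, 6 and 12 h sham.

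Among the 905 genes that rose, the 48 h sham lay inside the early sham range for 129 (14.3%), between the groups for 455 (50.3%), and in or past the injured range for 303 (33.5%). Among the 472 that fell, the counts were 107 (22.7%), 221 (46.8%) and 131 (27.8%). Over both directions the sham was in or past the injured range for 31.5% of called genes, and for 9.3% of those called without injured replicate 3 and 18.2% without replicate 1. It was inside the early sham range for 17.1%, and for 6.42%, 6.71% and 7.16% without the 3, 6 or 12 h sham and 8.09% without injured replicate 2. Over all genes with a higher injured mean, called or not, it lay inside the early sham range for 42.5%, between the groups for 9.61% and in or past the injured range for 36.8%. These shares describe 1 array and use the same early shams as the calls. In the fit, the 48 h sham differed from the early shams for 1 gene (0.00703%), albumin, with 973 at an unadjusted p under 0.05. The injured arrays differed from the 48 h sham for 0 genes (0%), with 1061 at an unadjusted p under 0.05. The smallest adjusted p in that last comparison was 0.0512, for Trem2, so no gene named here passed the test against the time-matched sham when all arrays were used.

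**Figure D1:**
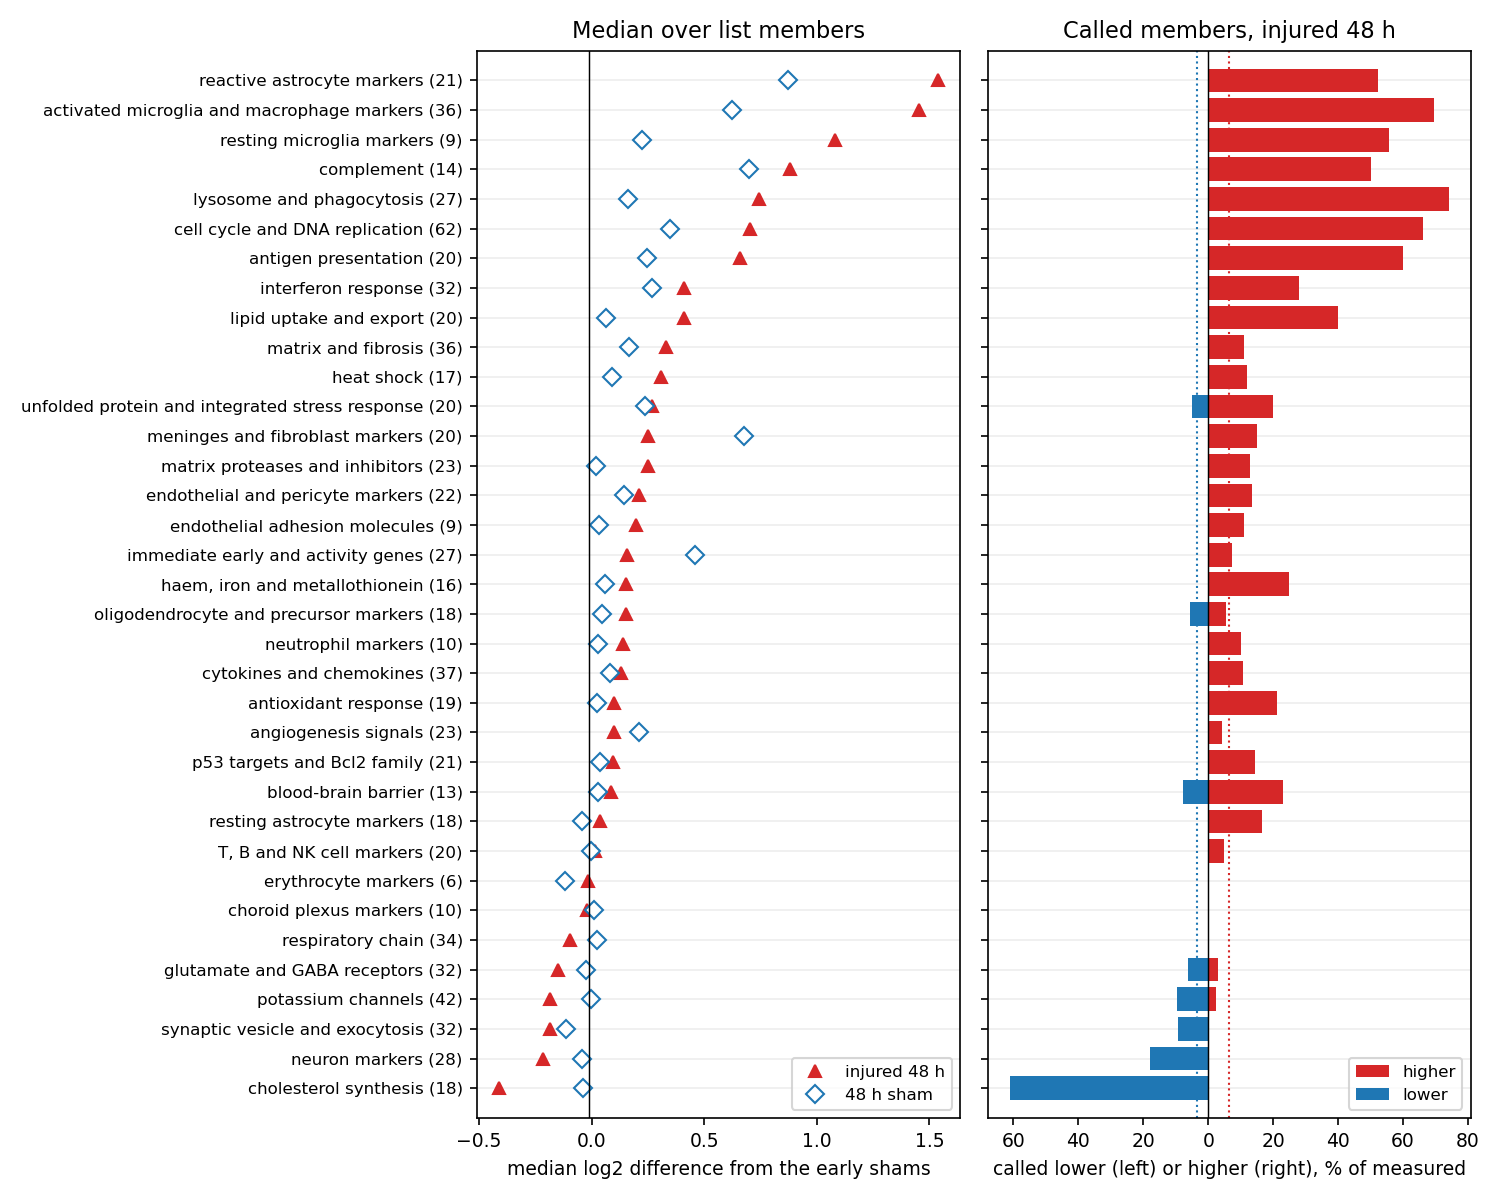
Left, median log2 difference from the early sham mean over the measured members of 35 gene lists, for the injured 48 h arrays (triangles) and the 48 h sham (diamonds), with the number of members in brackets and the median of all genes as a vertical line. Right, percent of members called higher or lower in the injured 48 h arrays, with dotted lines at the shares of all genes, 6.37% and 3.32%. The lysosome list had the highest share of rises, 74.1%, and cholesterol synthesis the highest share of falls, 61.1%. Lists and members were chosen with earlier results of these data known.

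The gene with the largest rise was Lcn2, which encodes lipocalin 2, a secreted iron-siderophore binder of the acute phase. Its centred log2 values were -4.83, -4.00 and -3.61 in the early shams, -2.36 in the 48 h sham and 1.32, 1.77 and 1.32 in the injured arrays. All 3 injured arrays lay far above every sham, and the 48 h sham lay above the early ones. The difference was 5.62 ± 0.45 (SE; 49.1-fold, adjusted p = 0.00011). Fcrl2, an Fc receptor-like gene, read 0.03, -0.03 and 0.25 in the early shams, 0.69 in the 48 h sham and 5.39, 4.14 and 3.66 after injury. Its rise was 4.31 ± 0.38 (adjusted p = 0.000168), and the 48 h sham was 0.61 above the early sham mean. Gpnmb, a glycoprotein of lysosomes in phagocytes, read -1.68, -1.73 and -1.60 in the early shams, -0.23 in the 48 h sham and 2.98, 3.35 and 1.35 after injury, a rise of 4.23 ± 0.50 (adjusted p = 0.000534). Here the sham at 48 h had moved about as far from the early shams as it remained from injured replicate 3.

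Spp1, which encodes the secreted phosphoprotein osteopontin, showed a different layout. Its values were -3.26, -2.83 and -2.24 in the early shams, 0.37 in the 48 h sham, and 2.04, 2.72 and -0.04 after injury. The 48 h sham was above injured replicate 3. The rise of 4.35 ± 1.11 had an adjusted p of 0.0259 and passed only with all arrays or without injured replicate 3. Without injured replicate 1 or 2 Spp1 gave an adjusted p of 0.0841 and 0.117, and without the 3, 6 or 12 h sham 0.0764, 0.0797 and 0.0585. Lgals3, the carbohydrate-binding galectin 3 of phagocytes, rose by 3.30 ± 0.72 with the 48 h sham only 0.70 above the early sham mean. Its adjusted p was 0.0514 without injured replicate 1 and 0.0669 without replicate 2. The calcium-binding protein gene S100a4 rose by 3.03 ± 0.46 and was already 2.06 higher in the 48 h sham.

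**Figure D2:**
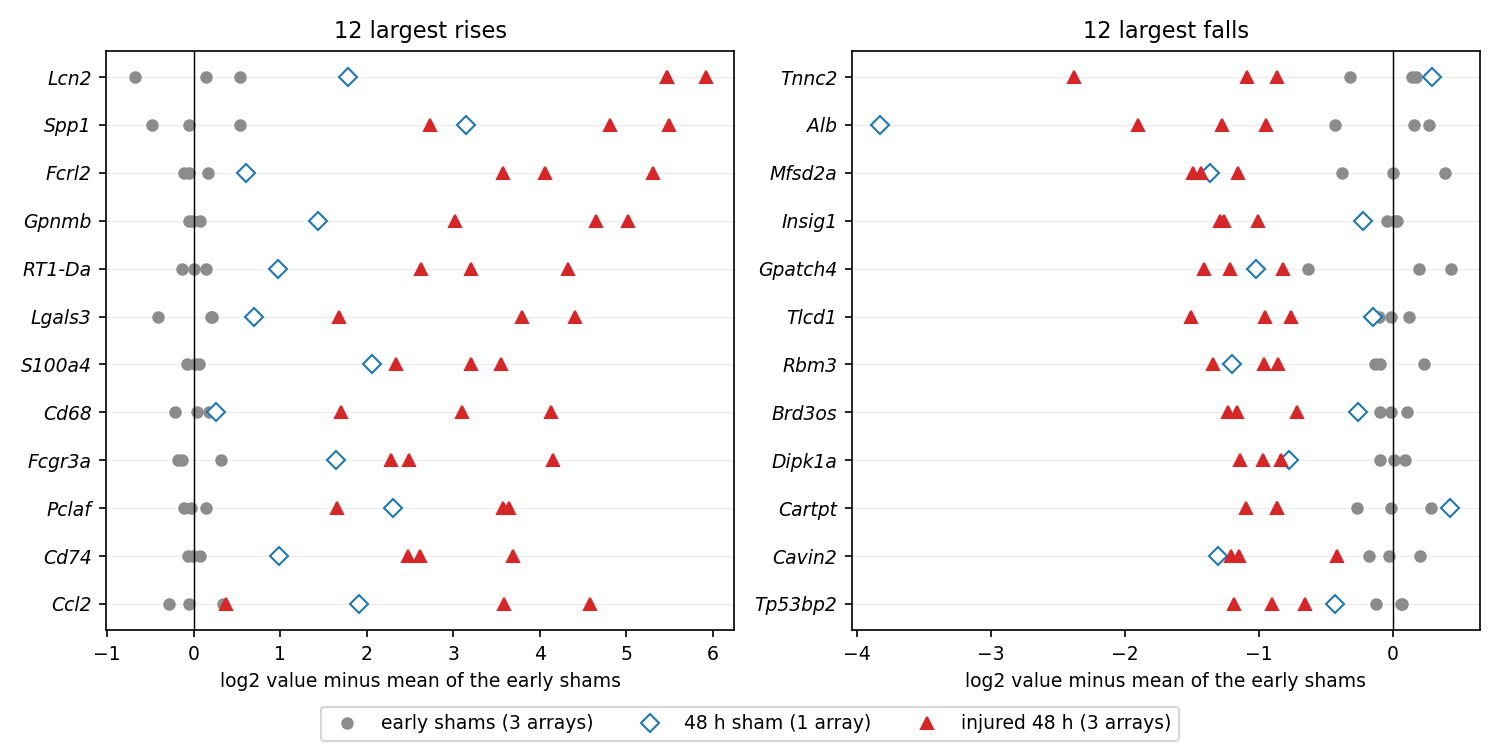
Log2 value of each array minus the mean of the 3 early shams, for the 12 called genes with the largest rise and the 12 with the largest fall among those whose groups do not overlap. Circles are early shams, diamonds the 48 h sham, triangles the injured 48 h arrays. The 48 h sham lies near the early shams for Cd68, Insig1 and Tlcd1, for example. It is among or past the injured arrays for Alb, Cavin2, Ccl2, Gpatch4, Mfsd2a, Pclaf, Rbm3 and Spp1.

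Markers of activated microglia and macrophages were above the early shams in all 3 injured arrays, judged by the list median. Of 36 measured members of this list 25 rose and 0 fell, with a median difference of 1.45 against -0.01 over all genes. The list median was 0.62 in the 48 h sham and 1.34, 2.03 and 1.01 in the 3 injured arrays. Cd68, the macrosialin of phagocyte endosomes, read -0.44, -0.18 and -0.04 in the early shams, 0.04 in the 48 h sham and 2.88, 3.91 and 1.48 after injury. Its 48 h sham was next to the highest early sham, and the rise was 2.98 ± 0.45 (7.87-fold, adjusted p = 0.00187). Fcgr3a, a receptor for immunoglobulin G, rose by 2.97 ± 0.45, with the 48 h sham 1.65 above the early shams. Lysozyme 2 (Lyz2) rose by 1.86 ± 0.40, with the 48 h sham at 0.97. That call was lost without injured replicate 2, when the adjusted p of Lyz2 was 0.0669, and without the 12 h sham, when it was 0.0533. The number of members that rose was between 15 and 27 when 1 array was left out, lowest without injured replicate 2.

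Genes that mark microglia in the undisturbed brain were also above the early shams. Of 9 measured members 5 rose and 0 fell, with a median of 1.08, and the same count of 5 was obtained in every fit with 1 array left out. Over the list the median was 0.88, 1.45 and 0.97 in the injured arrays and 0.22 in the 48 h sham. Csf1r, the receptor on which microglia depend for survival, rose by 1.51 ± 0.21 with the 48 h sham at 0.54 over the early shams. Trem2, a lipid-sensing receptor of microglia, read 0.30, 0.17 and 0.05 in the early shams, -0.20 in the 48 h sham and 1.98, 1.63 and 1.14 after injury. The sham of 48 h was below all early shams, opposite to the injured arrays, and the rise over the early shams was 1.41 ± 0.17 (adjusted p = 0.000585). Sall1, a transcription factor of microglia, rose by 1.28 ± 0.19 with the 48 h sham at 0.44. P2ry12, a purine receptor, and Tmem119, a membrane protein, both used to mark resident microglia, were 0.81 ± 0.29 and 0.76 ± 0.31 above the early shams, and neither passed the test (adjusted p = 0.103 and 0.141). Their 48 h sham lay inside the early sham range.

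Lysosomal and phagocytic genes formed the list with the largest share of rises, among lists chosen with earlier results of these data known. Of 27 measured members 20 rose and 0 fell, with a median of 0.74, and between 17 and 20 rose when 1 array was left out. The list shares 4 members, Gpnmb and Cd68 among them, with the activated microglia and macrophage list, and Trem2 with the resting microglia list. The list median was 0.71, 1.05 and 0.44 in the injured arrays and 0.16 in the 48 h sham. Cathepsin Z (Ctsz) was the third largest, with values of -0.13, -0.42 and -0.52 in the early shams, 1.44 in the 48 h sham and 1.98, 3.09 and 1.38 after injury. Its 48 h sham was above injured replicate 3, and its rise was 2.51 ± 0.43 (adjusted p = 0.00361). Other members, named here after their values were seen, had the 48 h sham near the early shams. The lysosomal protease cathepsin D (Ctsd) rose by 1.11 with the 48 h sham at 0.02, cathepsin B (Ctsb) by 0.74 with the sham at 0.02, and progranulin (Grn) by 1.54 with the sham at 0.36. Among the 20 members that rose, the 48 h sham was inside the early sham range for 4, between the groups for 10, and in or past the injured range for 4.

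Antigen presentation genes rose as well, in 12 of 20 measured members with 0 falls and a median of 0.66. Between 10 and 14 members rose when 1 array was left out. RT1-Da, the rat class II alpha chain that displays peptides to T cells, read -1.17, -1.03 and -0.89 in the early shams, -0.06 in the 48 h sham and 2.18, 3.30 and 1.60 after injury. The groups were far apart, with the 48 h sham between them, and the rise was 3.39 ± 0.46 (10.5-fold, adjusted p = 0.00109). Cd74, the invariant chain of class II molecules, rose by 2.93 ± 0.42 with the 48 h sham at 0.99. Psmb9, an immunoproteasome subunit of the class I pathway, rose by 2.22 ± 0.31, and the 48 h sham at 2.06 was among the injured arrays. In the 48 h sham the median of the list was 0.25.

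In the complement list 7 of 14 members rose and 0 fell, and 6 or 7 rose when 1 array was left out. The C1 inhibitor gene Serping1 rose by 2.73 ± 0.28, the central component C3 by 2.67 ± 0.45 and the C1q chain gene C1qc by 2.00 ± 0.40. Their 48 h sham lay 1.89, 1.88 and 0.97 above the early shams. The list median was 0.88 after injury and 0.70 in the 48 h sham. Interferon-responsive genes rose in 9 of 32 members with 0 falls and a median of 0.41, against 0.27 in the 48 h sham. That count was 3 without injured replicate 2 and between 4 and 10 in the other fits with 1 array left out. For 7 of the 9 the 48 h sham lay in or past the injured range, and for 2 between the groups. The membrane protein Ifitm1 rose by 2.57 ± 0.52 and the transcription factor Irf8, which macrophages need, by 2.04 ± 0.27, with the 48 h sham at 2.32 and 1.30. Gbp2, an interferon-induced GTPase, rose by 2.43 ± 0.53 with the 48 h sham at 1.59. Its adjusted p was 0.0509, 0.0669 and 0.0503 without injured replicate 1, injured replicate 2 and the 12 h sham. For Ifitm1, Irf8 and Gbp2 alike the 48 h sham was above injured replicate 3.

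Of 37 measured cytokine and chemokine genes 4 rose (10.8%, against 6.37% of all genes) and 0 fell, with a median of 0.13, and between 2 and 8 rose when 1 array was left out, most without injured replicate 3. Ccl2, the main chemoattractant of monocytes, read -5.02, -5.41 and -5.64 in the early shams, -3.45 in the 48 h sham and -1.77, -0.78 and -4.98 after injury. Injured replicate 3 was next to the highest early sham and below the 48 h sham, so the mean rise of 2.85 ± 0.76 (adjusted p = 0.0316) rested on the other arrays. Ccl2 gave an adjusted p of 0.113 and 0.145 without injured replicate 1 or 2, and 0.0611, 0.0921 and 0.0979 without the 3, 6 or 12 h sham. Il18, an interleukin of macrophages and microglia, rose by 1.68 ± 0.24 with the 48 h sham at 1.28. The interleukin 1 beta gene Il1b was 1.06 ± 0.39 above the early shams (adjusted p = 0.105, 48 h sham at 0.46), and Il6 0.06 ± 0.29 (adjusted p = 0.923, 48 h sham at -0.06). All injured arrays were above the early shams for Il1b, and it passed only without injured replicate 3.

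The shares of called markers of other blood leukocytes were near that of all genes, 6.37%. Of 10 neutrophil markers 1 rose (10%), with a median of 0.14 over the list and 0.03 in the 48 h sham. That gene was Csf3r, the receptor for granulocyte colony-stimulating factor, at 1.5 ± 0.41 with the 48 h sham at 0.86. Csf3r gave an adjusted p of 0.153 without injured replicate 2 and 0.0806, 0.125 and 0.0727 without the 3, 6 or 12 h sham. S100a9, a calprotectin chain of neutrophils, read -1.25, -1.46 and -0.54 in the early shams, 0.29 in the 48 h sham and -0.29, 2.78 and -1.0 after injury. The groups overlapped, injured replicate 2 alone being high, and the difference of 1.58 ± 0.73 did not pass (adjusted p = 0.196). It passed only without injured replicate 3. Of 20 T, B and NK cell markers 1 rose (5%), the T cell coreceptor gene Cd8b, at 0.44 ± 0.11 with the 48 h sham at 0.01. Cd8b held only without injured replicate 3. Its adjusted p was 0.0994 and 0.095 without injured replicate 1 or 2, and 0.069, 0.0694 and 0.0685 without the 3, 6 or 12 h sham.

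Markers of reactive astrocytes had the highest list median, 1.54, with 11 of 21 members rising and 0 falling. Some members that rose are also in other lists: Lgals3 (activated microglia and macrophages), Lcn2 and Cp (haem and iron), Hspb1 (heat shock) and Fabp7 (lipid uptake). The count was between 6 and 15 when 1 array was left out, lowest without injured replicate 1 or 2. Gfap, the intermediate filament that defines astrocytes, read -0.40, -0.83 and -0.81 in the early shams, 0.61 in the 48 h sham and 1.20, 1.28 and 1.04 after injury. The 3 injured arrays were close together and the 48 h sham was nearer to them than to the early shams, with a rise of 1.85 ± 0.24 (adjusted p = 0.000876). Vimentin (Vim), a filament of reactive glia and of many other cells, rose by 2.22 ± 0.41 with the 48 h sham at 0.87. The small heat shock protein gene Hspb1 rose by 2.81 ± 0.53 with the 48 h sham at 2.17. In the 48 h sham the median of the list was 0.87. Of 18 markers of resting astrocytes 3 rose (16.7%, against 6.37% of all genes), with a median of 0.04. They were the water channel Aqp4 by 0.45 ± 0.11, the membrane protein Mlc1 by 0.41 ± 0.08, and the gap junction protein Gja1 by 0.28 ± 0.08. Their 48 h sham lay at 0.40, 0.14 and 0.03. Probe sets differed for Aqp4 (0.77, 0.54 and 0.03) and for Gja1 (0.09, 0.46 and 0.29). Aqp4 did not pass without injured replicate 1, the 6 h sham or the 12 h sham (adjusted p = 0.0935, 0.0728 and 0.0843), and Gja1 in none of the 6 fits with 1 array left out (0.0534 to 0.124).

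Cell cycle and DNA replication genes rose in 41 of 62 measured members and fell in 0, with a median of 0.70 (all genes -0.01). For 29 of the 41 the 48 h sham lay in or past the injured range, for 9 between the groups, for 2 inside the early sham range and for 1 beyond it on the other side. The list median was 0.84, 1.04 and 0.25 in injured replicates 1, 2 and 3 and 0.35 in the 48 h sham, so the sham was above the third injured array. The number of rises was 25 without injured replicate 1 or without replicate 2, 45 without replicate 3 and between 30 and 32 without an early sham. Cdk1, the kinase that drives entry into mitosis, read -0.04, 0.05 and 0.32 in the early shams, 1.77 in the 48 h sham and 2.88, 3.33 and 1.32 after injury. Its rise was 2.40 ± 0.36 (5.28-fold, adjusted p = 0.0018). Mki67, the proliferation antigen Ki-67, read 0.09, -0.01 and 0.14 in the early shams, 1.37 in the 48 h sham and 2.48, 2.87 and 0.96 after injury, a rise of 2.03 ± 0.32 (adjusted p = 0.00228). In both genes all early shams were low, and the 48 h sham stood between injured replicate 3 and the other injured arrays. The mitotic genes Cks2, which encodes a Cdk1 subunit, and Ccnb2, which encodes cyclin B2, rose by 2.47 ± 0.35 and 2.27 ± 0.30, with the 48 h sham at 1.59 and 1.58. Pclaf, a partner of the replication clamp PCNA that is not in the list, rose by 2.96 ± 0.39 with the 48 h sham at 2.30, above injured replicate 3. Top2a, the topoisomerase that separates chromosomes, rose by 1.04 ± 0.16 with the 48 h sham at 0.64, but its probe sets differed (0.43 and 1.65).

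Promoters of the genes that rose are shown because many members of the list rose together. Many cell cycle promoters carry the cell cycle genes homology region (CHR), recognised by the DREAM and MuvB complexes, next to CCAAT boxes, recognised by the factor NF-Y. RefSeq promoter windows of GRCr8 (300 bases, most of them before the annotated start) were matched by symbol to 34 of the 41 genes. TTTGAA, the CHR core, was found on either strand in 18 of the 34 (52.9%), compared with 12.3% of the 11734 matched promoters of tested genes and 18.1% of all 27457 promoters of the table. CCAAT on either strand was found in 27 of 34 (79.4%), compared with 37.3% and 37.7%. A match is a run of letters and was not tested for function. List members that did not rise were not counted. The shares therefore cannot separate genes that rose from cell cycle genes in general, and nothing about the rise is read from them. The windows of Cdk1 (chr20:19265043-19265342, plus strand) and Mki67 (chr1:199952544-199952843, minus strand), 5′ to 3′ on the gene's strand, have both motifs in capitals, with CCAAT as ATTGG on the opposite strand. In Mki67 the second TTTGAA overlaps an ATTGG.
Cdk1: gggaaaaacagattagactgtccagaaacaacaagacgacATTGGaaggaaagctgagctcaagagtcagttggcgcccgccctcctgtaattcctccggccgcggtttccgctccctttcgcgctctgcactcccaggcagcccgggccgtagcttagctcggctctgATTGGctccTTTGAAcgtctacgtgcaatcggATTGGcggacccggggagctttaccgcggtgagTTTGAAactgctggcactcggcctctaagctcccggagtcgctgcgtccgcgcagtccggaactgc
Mki67: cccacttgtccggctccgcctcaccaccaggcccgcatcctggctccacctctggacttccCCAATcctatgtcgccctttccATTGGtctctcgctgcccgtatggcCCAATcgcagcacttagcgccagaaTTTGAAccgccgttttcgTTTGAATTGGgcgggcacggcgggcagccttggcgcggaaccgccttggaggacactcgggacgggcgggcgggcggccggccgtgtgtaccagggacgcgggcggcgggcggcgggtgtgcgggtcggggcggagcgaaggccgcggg

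Cholesterol synthesis had the largest share of falls among the 35 lists, which were chosen with earlier results of these data known. Of 18 measured members 11 fell and 0 rose, with a median of -0.41, and between 9 and 13 fell when 1 array was left out. Its members had a median of -0.39, -0.48 and -0.47 in the injured arrays and -0.04 in the 48 h sham. The 3 injured arrays thus lay close together, including replicate 3. For 5 of the 11 genes the 48 h sham was inside the early sham range, for 5 between the groups, for 0 in or past the injured range, and for 1 beyond the early shams on the other side. Insig1, which encodes the sterol-sensing protein that retains the activators of this pathway in the endoplasmic reticulum and is itself one of their targets, read -0.10, -0.16 and -0.09 in the early shams, -0.34 in the 48 h sham and -1.38, -1.12 and -1.41 after injury. The groups were well separated, with a fall of 1.19 ± 0.18 on the log2 scale (adjusted p = 0.00212). Idi1, the isomerase that makes the isoprenoid building block dimethylallyl diphosphate, read -0.34, -0.35 and -0.24 in the early shams, -0.04 in the 48 h sham and -1.0, -0.93 and -1.19 after injury. Here the 48 h sham was above all early shams, away from the injured arrays, and the difference was -0.73 ± 0.12 (adjusted p = 0.00294). Msmo1, the sterol C4-methyl oxidase, fell by 0.68 ± 0.13 with the 48 h sham at -0.15.

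Of the 11 cholesterol genes that fell, 9 had a matched promoter window. The sterol regulatory element TCACNCCAC, the site of the SREBP factors that activate the pathway, was found on either strand in 0 of the 9 and in 1.12% of the promoters of tested genes. No match says only that these letters are not in the window. CCAAT was found in 7 of 9 (77.8%), set against 37.3% of tested genes. Members of this list that did not fall were not counted either, so nothing about the fall is read from the share. The windows of Insig1 (chr4:8057720-8058019, minus strand) and Idi1 (chr17:66547475-66547774, minus strand), those of the members with the largest falls, have CCAAT boxes in capitals, as ATTGG.
Insig1: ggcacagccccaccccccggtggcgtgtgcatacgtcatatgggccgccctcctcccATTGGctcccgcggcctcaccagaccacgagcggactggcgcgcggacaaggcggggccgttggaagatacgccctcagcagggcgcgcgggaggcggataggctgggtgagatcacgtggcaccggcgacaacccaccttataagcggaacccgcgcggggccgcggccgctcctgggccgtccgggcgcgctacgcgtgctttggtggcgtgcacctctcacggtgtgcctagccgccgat
Idi1: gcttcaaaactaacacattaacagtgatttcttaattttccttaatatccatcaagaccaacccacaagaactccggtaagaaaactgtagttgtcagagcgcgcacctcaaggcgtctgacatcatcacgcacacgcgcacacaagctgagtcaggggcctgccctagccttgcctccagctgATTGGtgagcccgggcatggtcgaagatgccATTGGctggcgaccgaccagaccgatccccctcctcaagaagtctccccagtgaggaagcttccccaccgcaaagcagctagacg

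Genes of lipid uptake, storage and export went the other way, with 8 of 20 members rising and 0 falling and a median of 0.41 (48 h sham 0.06). The count was between 3 and 9 when 1 array was left out, lowest without the 6 h sham. The fatty acid binding protein gene Fabp7, of radial glia and astrocytes, read -0.01, -0.34 and -0.27 in the early shams, 0.89 in the 48 h sham and 2.45, 1.77 and 1.59 after injury. The 48 h sham was midway, and the rise was 2.14 ± 0.24 (adjusted p = 0.00033). Plin2, which coats lipid droplets, rose by 1.67 ± 0.41 with the 48 h sham at 0.27, and the sterol exporter Abca1 by 1.24 ± 0.29 with the sham at 0.54. Plin2 held only without injured replicate 3, with an adjusted p of 0.0569 to 0.113 in the other 5 fits with 1 array left out. Abca1 did not pass without injured replicate 1, the 3 h sham or the 6 h sham (0.0799, 0.0693 and 0.0743).

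**Figure D3:**
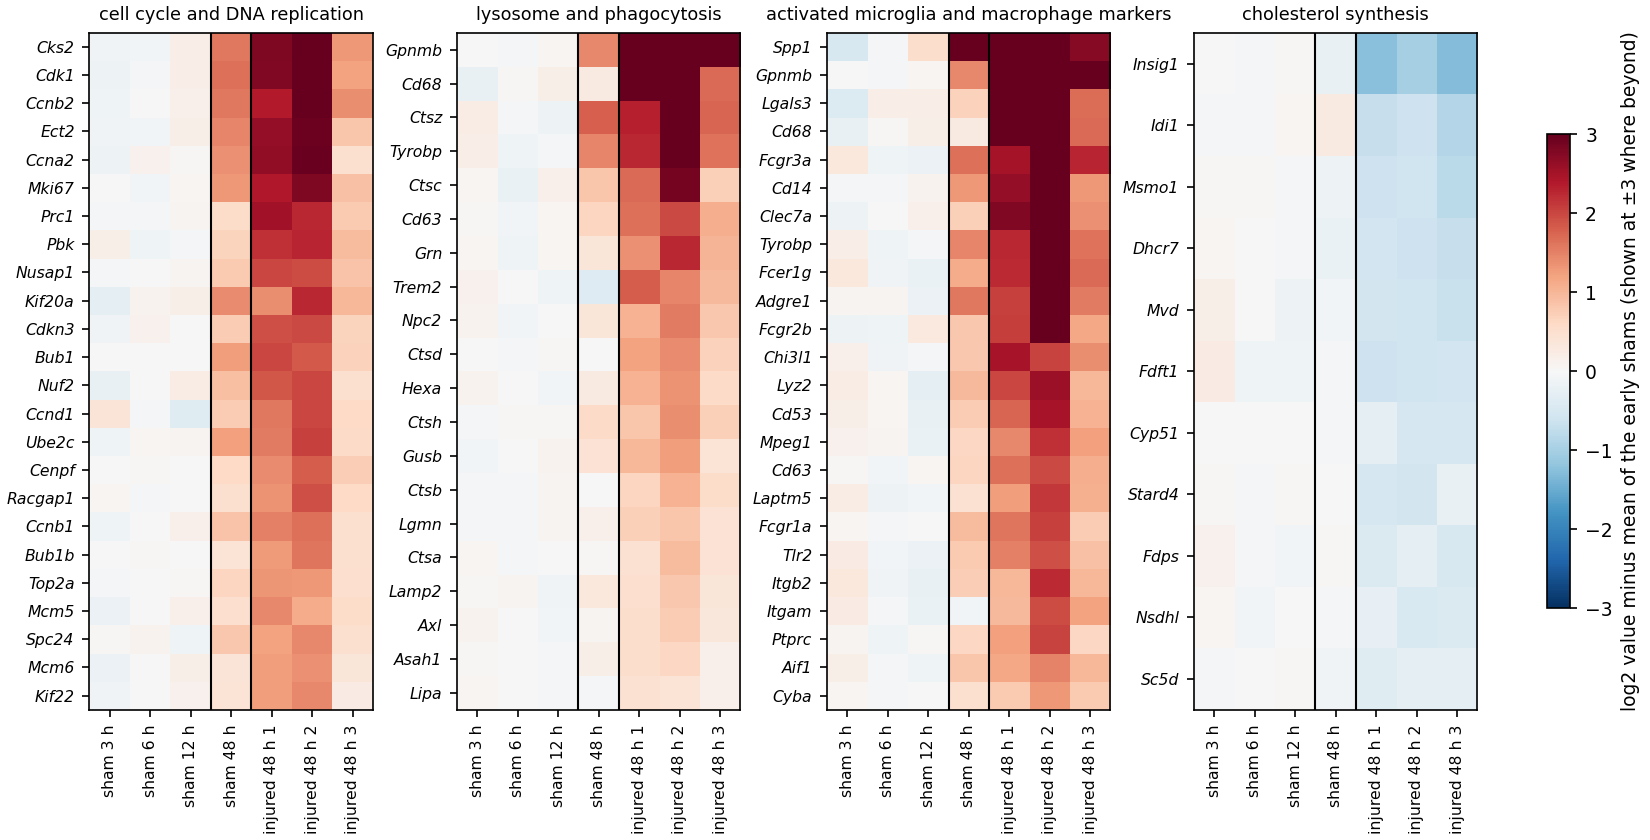
Heat maps of the log2 value minus the early sham mean for members of 4 lists, up to 24 that rose (or, for cholesterol synthesis, the 11 that fell), ordered by the difference. Columns are the 3 early shams, the 48 h sham and injured 48 h replicates 1 to 3, and values beyond 3 in either direction are drawn at that limit. Injured replicate 3 is the palest of the injured arrays in the cell cycle panel and like the others in the cholesterol panel, where the 48 h sham is near the early shams.

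Genes of vessels, meninges and matrix were counted against the 6.37% of all genes that rose. Of 22 endothelial and pericyte markers 3 rose (13.6%; 5 without injured replicate 3 and 2 in the other fits with 1 array left out), with a median of 0.21 and 0.14 in the 48 h sham. Tagln, a smooth muscle and pericyte actin-binding protein, rose by 2.50 ± 0.39 with the 48 h sham at 0.85. Tie1, an endothelial receptor kinase, rose by 0.74 ± 0.13 with the sham at 0.49, and was the only 1 of 23 angiogenesis genes to do so (4.35%). Of 9 endothelial adhesion molecules 1 rose (11.1%), Icam1, by 0.79 ± 0.22 with the 48 h sham at 0.51. Icam1 held only without injured replicate 3, and its adjusted p was 0.0813 to 0.181 otherwise. Of 20 meningeal and fibroblast markers 3 rose (15%; 3 without injured replicate 3 and 1 in the other 5 fits), and the list median was 0.25 after injury but 0.68 in the 48 h sham, above all injured arrays (0.16, 0.62 and 0.16). How much dissected meninges contributed was not tested. Igfbp2, a binding protein of insulin-like growth factors, rose by 2.23 ± 0.22 with the 48 h sham at 1.29, and the proteoglycan lumican (Lum) by 0.97 ± 0.24 with the sham at 1.13, past the injured mean. Lum did not pass without any 1 array other than injured replicate 3 (adjusted p 0.0508 to 0.0941).

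In the matrix and fibrosis list 4 of 36 rose (11.1%), with a median of 0.33 (48 h sham 0.17). The count was 8 without injured replicate 3 and 2 in the other 5 fits with 1 array left out. Loxl1, which cross-links elastin, rose by 0.74 ± 0.09 with the 48 h sham at 0.55. The collagen gene Col1a1 was 0.33 ± 0.21 above the early shams and did not pass (adjusted p = 0.367), with the sham at 0.48. Of 23 proteases and inhibitors 3 rose (13%), 9 without injured replicate 3 and 2 in the other 5 fits. They were the protease inhibitor A2m by 2.27 ± 0.44 (48 h sham at 1.65), the gelatinase Mmp2 by 0.61 ± 0.11 (0.56) and the macrophage elastase Mmp12 by 1.73 ± 0.45 (-0.06). The Mmp2 rise came from 1 of its probe sets (1.23 against -0.02). Mmp12 read -0.15, 0.04 and -0.11 in the early shams, -0.13 in the 48 h sham and 2.61, 2.19 and 0.18 after injury. Injured replicate 3 was just above the shams, and the call held only without that array (adjusted p 0.0727 to 0.126 otherwise). Timp1, an inhibitor of matrix metalloproteinases, was 1.63 ± 0.50 above the early shams (adjusted p = 0.0559) with the 48 h sham at 1.47. Timp1 passed only without injured replicate 3. Choroid plexus and erythrocyte markers gave 0 calls among 10 and 6 members, with medians of -0.02 each after injury.

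Of 13 blood-brain barrier genes 3 rose (23.1%, against 6.37% of all genes) and 1 fell (7.69%, against 3.32%). When 1 array was left out, 1 to 3 rose, with 1 in 4 of the 6 fits. The gene that fell was Mfsd2a, the lipid transporter of brain endothelium that keeps transcytosis low. It read 0.14, 0.52 and 0.91 in the early shams, -0.84 in the 48 h sham and -0.91, -0.63 and -0.97 after injury, a difference of -1.36 ± 0.26 (adjusted p = 0.00648). The sham of 48 h was among the injured arrays, and the difference between them was 0.0033. Occludin (Ocln), a tight junction protein, rose by 0.52 ± 0.10 with the 48 h sham at 0.41, but was -0.24 after quantile normalization of the deposited values. Its probe sets gave 0.78 and 0.25. The tight junction gene Cldn5 differed by -0.14 ± 0.17 (adjusted p = 0.651, 48 h sham at -0.17).

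Among stress and haem genes, Hmox1, the haem-degrading oxygenase, read -1.66, -2.12 and -1.95 in the early shams, -1.48 in the 48 h sham and 0.82, 1.36 and -0.69 after injury. The sham stayed near the early shams and injured replicate 3 was the lowest of its group, with a rise of 2.41 ± 0.63 (adjusted p = 0.0289). Hmox1 held only without injured replicate 3 (adjusted p 0.0581 to 0.135 otherwise). In its list of haem, iron and metallothionein genes 4 of 16 rose (25%, against 6.37% of all genes). The count was 5 without injured replicate 3 and 2 in the other 5 fits with 1 array left out. Of 19 antioxidant genes 4 rose (21.1%), and 2 to 4 when 1 array was left out. The peroxidase Gpx1 rose by 0.93 ± 0.13 with the 48 h sham at 0.33, and the quinone reductase Nqo1 by 0.57 ± 0.10 with the sham at 0.02. Of 17 heat shock genes 2 rose (11.8%), 6 without injured replicate 3 and 1 without replicate 2 or any early sham. Of 21 p53 targets and Bcl2 family genes 3 rose (14.3%), and 2 to 4 when 1 array was left out. Bcl2a1, an anti-apoptotic gene of leukocytes, rose by 2.56 ± 0.33 with the 48 h sham at 1.71, and the inflammatory caspase gene Casp4 by 1.30 ± 0.18 with the sham at 1.08. Of 20 genes of the unfolded protein and integrated stress response 4 rose (20%) and 1 fell (5%, against 3.32% of all genes). There were 8 rises without injured replicate 3 and 3 to 5 in the other fits, and 0 falls in any of them. Sdf2l1, a chaperone partner of the endoplasmic reticulum, rose by 1.43 ± 0.29 with the 48 h sham at 0.99.

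Neuronal genes were mostly a little lower. Of 28 neuron markers 5 fell (17.9%, against 3.32% of all genes) and 0 rose. The median was -0.22, and every member had a negative difference, from -0.77 to -0.03. The list median was -0.28, -0.32 and -0.01 in injured replicates 1, 2 and 3 and -0.04 in the 48 h sham, so the third injured array was at the sham level. The number that fell was 13 without injured replicate 3 and 1 without either of the other injured arrays, 2 without the 3 h sham and 1 without the 6 or 12 h sham. Camk2a, the calcium-dependent kinase of excitatory neurons, differed by -0.77 ± 0.12, with the 48 h sham at -0.85, past the injured mean. Its 4 probe sets gave -0.64, -0.45, -1.62 and -0.37. Rbfox3, the neuronal nuclear antigen NeuN, differed by -0.34 ± 0.10, and Pvalb, of fast-spiking interneurons, by -0.33 ± 0.09, with the 48 h sham at 0.00 and -0.04. Both held only without injured replicate 3 (Rbfox3 0.0751 to 0.204 and Pvalb 0.0635 to 0.152 otherwise). The vesicular glutamate transporter Slc17a7 was at -0.19 ± 0.08 and did not pass (adjusted p = 0.174, 48 h sham at -0.15), except without injured replicate 3.

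Synaptic vesicle genes fell in 3 of 32 members (9.38%, against 3.32% of all genes), with a median of -0.19. They fell in 11 without injured replicate 3 but only 1 or 2 in the other 5 fits with 1 array left out. The median of injured replicate 3 was 0.001. Rims2, a scaffold of the release site, differed by -0.50 ± 0.08 with the 48 h sham at -0.08. Of 42 potassium channel genes 4 fell (9.52%) and 1 rose (2.38%, against 6.37% of all genes). There were 12 falls without injured replicate 3 and 2 or 3 in the other fits. The fast-spiking channel gene Kcnc2 differed by -0.48 ± 0.08 with the 48 h sham at -0.15. Its probe sets ranged from -0.94 to -0.14. Of 32 glutamate and GABA receptor subunits 2 fell (6.25%) and 1 rose (3.12%), with 5 falls without injured replicate 3 and 0 or 1 otherwise. Of 34 respiratory chain genes 0 changed. The medians of the receptor and respiratory chain lists were -0.15 and -0.10. Of 18 oligodendrocyte and precursor markers 1 rose and 1 fell (5.56% each), with 0 to 3 rises and 0 or 1 falls when 1 array was left out. Myelin basic protein (Mbp) was at -0.24 ± 0.09 and did not pass (adjusted p = 0.114), with the 48 h sham at -0.12.

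Of 27 immediate early and activity genes 2 rose (7.41%), and 0 to 2 when 1 array was left out, with 0 in 3 of the 6 fits. The list median was 0.07, 0.06 and 0.52 in the injured arrays and 0.46 in the 48 h sham, so injured replicate 3 was near the sham and above the other injured arrays. Fos, the activity-induced transcription factor, read -0.43, -0.95 and -1.21 in the early shams, 0.27 in the 48 h sham and -0.53, -0.20 and -0.20 after injury. The groups overlapped, the 48 h sham was the highest of all 7 arrays, and the rise of 0.56 ± 0.17 had an adjusted p of 0.0488, from probe sets at -0.03 and 1.15. It held only without the 3 h sham (0.0521 to 0.179 otherwise). Ier2, also induced by activity, rose by 0.58 ± 0.16 with the 48 h sham at 1.12. Ier2 gave an adjusted p of 0.17, 0.0631, 0.118 and 0.107 without injured replicate 2 and the 3, 6 and 12 h sham.

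The largest falls included genes outside these lists. Tnnc2, the fast muscle troponin C, read -0.11, 0.35 and 0.38 in the early shams, 0.50 in the 48 h sham and -0.88, -2.17 and -0.66 after injury. The 48 h sham was above every early sham, and the difference was -1.44 ± 0.32 (adjusted p = 0.0129), with 0.0536 and 0.0524 without the 6 or 12 h sham. Alb, the serum albumin gene, read 0.34, 0.94 and 1.04 in the early shams, -3.05 in the 48 h sham and -0.50, -0.17 and -1.12 after injury. The sham of 48 h was the lowest array by far, and the difference of injured from early sham arrays was -1.37 ± 0.31 (adjusted p = 0.0152), with 0.0624 and 0.0629 without the 6 or 12 h sham. Rbm3, a cold-inducible RNA-binding protein gene, read 0.02, 0.05 and 0.38 in the early shams, -1.05 in the 48 h sham and -0.71, -0.81 and -1.19 after injury, a difference of -1.05 ± 0.15 (adjusted p = 0.00151). In Alb and Rbm3 the 48 h sham was as low as the injured arrays or lower. Tlcd1, a regulator of membrane lipid composition, differed by -1.07 ± 0.16, the antisense transcript Brd3os by -1.04 ± 0.18 and the p53-binding gene Tp53bp2 by -0.91 ± 0.16. Their 48 h sham lay at -0.15, -0.26 and -0.43. The neuropeptide gene Cartpt differed by -0.94 ± 0.25 with the 48 h sham at 0.42, and did not pass in any fit that left out an early sham or injured replicate 1 or 2 (adjusted p 0.0507 to 0.109).

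The number of genes called against the time-matched sham depended on injured replicate 3. Without it, the 2 remaining injured arrays were above the 48 h sham for 112 genes (0.788%) and below it for 17 (0.12%). Without injured replicate 1 the count was 2 (Fcrl2 and Trem2), and without replicate 2 it was 1. The spread of the single sham was taken from the other groups. Of the 112, 19 were among the 62 cell cycle genes and 8 among the 27 lysosome genes, with 3 of 36 activated and 1 of 9 resting microglia markers and 3 of 21 reactive astrocyte markers. These counts overlap: Gpnmb and Cd68 are in both the lysosome and the activated list. The resting marker, Trem2, is a lysosome list member too. Cd68 was 3.35 ± 0.45 above the 48 h sham, Mmp12 2.53 ± 0.31, Fcrl2 4.08 ± 0.50, Gpnmb 3.39 ± 0.58 and Lcn2 3.91 ± 0.70. On the lower side, 1 of 18 cholesterol genes passed, Idi1 at -0.92 ± 0.18, and Tnnc2 was at -2.02 ± 0.43.

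The injured arrays of 12 h share no sham with this comparison and place the lists in time. Against them 1165 genes were higher at 48 h (8.19%) and 1015 lower (7.14%). Cell cycle genes were higher in 36 of 62 members, lysosome genes in 15 of 27, resting microglia markers in 9 of 9 and activated ones in 8 of 36. Cholesterol synthesis genes were lower in 12 of 18, interferon genes in 16 of 32, cytokines in 12 of 37 and neutrophil markers in 5 of 10. The resting microglia list had been below the early shams before 48 h, with a median of -0.84 at 6 h and -0.86 at 12 h. Its difference between 12 and 48 h therefore includes a return from that fall. Fcrl2 was 4.62 higher at 48 h than at 12 h, P2ry12 3.43 higher and Trem2 2.01 higher, whereas S100a9 differed by -4.09 and Ccl2 by -3.57. Against the early shams P2ry12 stood at -2.62 at 12 h and 0.81 at 48 h. Lcn2 differed by -0.08 ± 0.45 (adjusted p = 0.939). Time after injury and time since the craniectomy differ together in this comparison too.

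**Figure D4:**
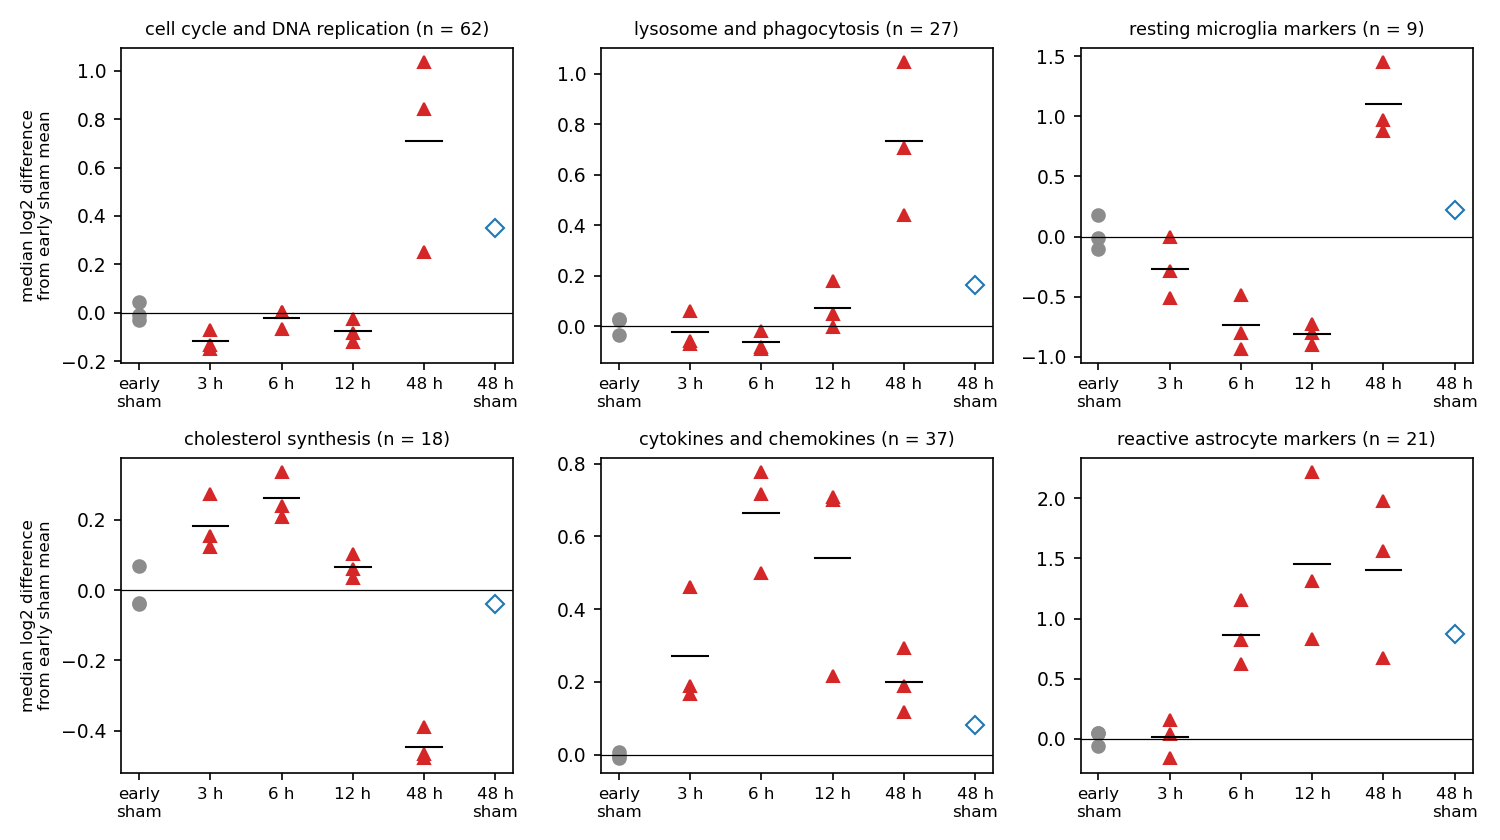
Median log2 difference from the early sham mean over the members of 6 gene lists, 1 point per array, for the early shams (circles), injured arrays at 3, 6, 12 and 48 h (triangles, with the group mean as a line) and the 48 h sham (diamond). The vertical scales differ between panels. The cell cycle medians are 0.84, 1.04 and 0.25 at 48 h against 0.35 in the 48 h sham, and the cholesterol medians -0.39, -0.48 and -0.47 against -0.04.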

How the data were processed

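RNA of 16 cortex samples was measured on Affymetrix arrays, and 7 of them are described. Per the submitters' processing notes the authors used RMA (background correction, quantile normalization and probe set summary). The deposited values are logarithms, taken as log2 because the base is not given in the sources used here, with each probe set's median over the 16 arrays subtracted, which was checked on every probe set. Of 31099 probe sets, the 20832 with 1 gene symbol in the platform annotation were kept (symbols updated by gene ID for 20764) and those of a gene averaged, giving 14218 genes.

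Genes were tested with limma 3.58.1 in R 4.3.3, with 1 linear model of 6 groups on 16 arrays (10 residual degrees of freedom), eBayes and Benjamini-Hochberg adjustment over all genes, and called at an adjusted p under 0.05. The fit was also run on simulated data, whose outcome is not given here and from which no result is drawn. For arrays no read depth exists, and their number limits the precision.

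Genes were named by a rule: the 12 largest rises and 12 largest falls among called genes whose groups do not overlap, up to 3 called members per list and direction, and a panel of well-known injury genes. Members and lists were chosen with earlier results of these data known. Promoter windows (250 bases before to 50 after the start) are from RefSeq, GRCr8, and match 11734 of the 14218 genes. Alternatives covered normalization, probe set summary, control group, model, filter and each array left out.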

Additional observations from a re-analysis of the deposited data

Results flagged for a closer look

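Of the 24 genes with the largest rises and falls against the early shams, 16 also differed between injured cortex of 48 h and of 12 h, by the test of that difference in limma (Benjamini-Hochberg adjusted p under 0.05 over all genes). The shares over all 14218 genes were 8.19% in the higher and 7.14% in the lower direction. The 24 were picked on the same injured 48 h arrays, so nothing is read from their share. Higher at 48 h than at 12 h were Fcrl2 by 4.62 on the log2 scale, the replication gene Pclaf by 3.22, the phagocyte genes Cd68 by 2.21 and Fcgr3a by 1.68, S100a4 by 1.86, and the class II genes RT1-Da by 1.58 and Cd74 by 1.35. Lower at 48 h were the monocyte chemoattractant Ccl2, with a difference of -3.57, the sterol regulator Insig1 at -1.39, the cold-inducible Rbm3 at -1.22, Tnnc2 at -1.15, the endothelial transporter Mfsd2a at -0.98, the neuropeptide gene Cartpt at -0.92, Gpatch4 at -0.86 (48 h sham -1.02 from the early shams; its call against those shams held in 3 of 6 fits with 1 array left out), Brd3os at -0.73 and Tlcd1 at -0.65. No group had 4 or more arrays, so a single array far from its group was not looked for.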

How the results depend on the processing

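The count of 1377 genes against the early shams was 1346 with the median of probe sets, 1081 after quantile normalization and 1383 with each array's median subtracted. It became 242 (233 higher, 9 lower) with a 2-fold minimum, 585 (430 and 155) with only the 6 arrays compared in the model, 2406 (1423 and 983) with array weights, and 0 with the 48 h sham alone as control. With all 4 shams as control the falls dropped to 294. Leaving out 1 array gave 482 to 2054 calls, 404 to 1292 higher and 78 to 762 lower. It put the 48 h sham inside the early sham range for 6.42% to 20.6% of called genes (17.1% with all arrays), and in or past the injured range for 9.3% to 30.2% (31.5%). The 48 h sham against the early shams gave 0 to 2 calls, and 29 after quantile normalization. The injured arrays against the 48 h sham gave 1 to 129, and 4 after quantile normalization. The 2180 calls of 48 h against 12 h became 1339 to 2442 with 1 array left out and 1261 after quantile normalization.

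With the 48 h sham alone as control, 10 of the 100 named genes that were called changed sign: Alb to 2.45, Camk2a to 0.0833, Cavin2 to 0.38, Cp to -0.20, Fos to -0.58, Grik5 to 0.0133, Ier2 to -0.54, Lum to -0.16, Mfsd2a to 0.0033 and Rbm3 to 0.15. Cldn5 and Col1a1, which were not called, changed to 0.03 and -0.145. Ocln changed to -0.24 after quantile normalization. The cause was not tested. After quantile normalization interferon genes gave 5 rises in place of 9 and neuron markers 3 falls in place of 5, and potassium channels 0 rises and 3 falls in place of 1 and 4. Rises became 0 in place of 2 for immediate early genes, and 0 in place of 1 for endothelial adhesion molecules and for T, B and NK markers. They became 1 in place of 3 for meningeal and for resting astrocyte markers, and 2 in place of 4 for haem genes. Rises went up to 6 from 4 for the unfolded protein list, to 4 from 3 for proteases and to 3 from 2 for heat shock. Of the 100 named genes that were called, 55 were called in all 6 fits with 1 array left out. Of these 100 calls, the number lost without a change of sign was 23 after quantile normalization, 30 with all 4 shams as control and 37 with only the 6 arrays. Ocln, which changed sign after quantile normalization, is not among the 23. Calls of Cavin2, Cp and Grik5 were lost in 2, 5 and 4 of the 6 fits with 1 array left out.

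No paired analysis was possible for the comparison with shams because all shams carry replicate number 1. For 48 h against 12 h, same-numbered injured arrays correlated in their deviations at 0.089, 0.193 and 0.189, each array best with its own number. With 3 arrays a group these values cannot show whether the numbers mark pairs, and no pairing is read from them. A fit of the 12 injured arrays with the replicate number as a block gave 1657 calls, and without the block, a fit added after the data were seen, 1807. Limits: 1 array stands for the 48 h sham, 3 arrays form each other group, centred values hold no level, and injury, time and time since craniectomy differ together.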

Other observations

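Several genes outside the lists, chosen after their values were seen, had the 48 h sham at or near the early shams while all injured arrays were high. Arl11, a small GTPase of the Arf-like family, read -0.02, -0.34 and 0.19 in the early shams, 0.02 in the 48 h sham and 2.53, 2.66 and 1.85 after injury, a difference of 2.40. Cndp1, the carnosine dipeptidase, read 0.20, -0.01 and 0.05, then 0.01 in the 48 h sham, and 1.83, 2.63 and 0.94 after injury. Mgst1, a membrane-bound glutathione transferase, differed by 2.36 with the 48 h sham at 0.61, and Folr2, a folate receptor of macrophages, by 2.18 with the sham at 0.53. In each of these genes the lowest injured array was above every sham.

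Genes induced by neuronal activity, also chosen after their values were seen, stood high in the 48 h sham and in injured replicate 3. Arc read 0.03, -0.09 and -0.61 in the early shams, 1.91 in the 48 h sham and 0.00, -0.17 and 1.66 after injury. Nr4a1 read 0.29, -0.07 and -0.34 in the early shams, 1.42 in the 48 h sham and -0.23, -0.62 and 0.97 after injury. Neither gene was called against the early shams. Cirbp, a cold-inducible RNA-binding protein gene like Rbm3, differed by -0.83 after injury and by -0.71 in the 48 h sham.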
